A study of Mus musculus with 4 samples.

Results

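Expression of 10 genes of peptide and amine secretion was followed across 4 cell lines of small cell lung cancer (SCLC) of the mouse: the hormone precursor gene Calca, the amine-synthesis gene Ddc, the granin and related genes Chga, Chgb, Scg2, Scg3, Scg5 and Resp18, and the processing enzyme genes Pcsk1 and Cpe. They were taken by symbol from the deposited table, which held 10 of the 10 among 54641 gene symbols. All lines came from the autochthonous model on a C57BL/6 background, in which Rb1 and Trp53 are deleted conditionally after Cre adenovirus is given through the trachea. No source used here names the promoter that drove Cre or the ages of the donor mice. By the submitters' description, lines P1, P4 and P5 (n = 3) each derive from the lung tumor of a different mouse, and line M1 (n = 1) from a metastasis in the liver of another mouse. The labels name lung as the origin of M1 too, and the deposited column names of P1 and P5 share a number that no source used here explains. All lines were untreated and were sequenced as 1 library each, so that a value carries no replicate error for its own line.

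SCLC is a neuroendocrine carcinoma, and cells of this kind store peptides and amines in dense core vesicles. Granins are acidic proteins that aggregate in the trans-Golgi network and help to load these vesicles, prohormone convertases cut the precursors at pairs of basic residues, and carboxypeptidase E trims the basic residues that remain. In the lung, pulmonary neuroendocrine cells are the normal cells with this program, and calcitonin gene-related peptide and chromogranin A are used to stain them and the tumors that derive from them.

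The values were counts per 1000000 assigned reads (CPM). By the step size of the values, the libraries contained between 9527011 reads (P1) and 13890726 reads (P4). P4 and M1 contained fewer genes than P1 and P5, with 7985 and 10074 symbols above 0 (14.6% and 18.4% of all symbols) against 17824 and 20578 (32.6% and 37.7%). By counting error alone, a count of 0 allows up to 3 reads, or between 0.216 CPM (P4) and 0.315 CPM (P1). With so many genes at 0 in P4 and M1, a 0 there may not bound the level of a gene this closely. Zeros are those of the deposited table, and no ratio to a line at 0 was formed. Of the deleted genes, Trp53 was at no more than 0.260 CPM in any line, while Rb1 had 13.2 CPM in P5 and 10.3 CPM in P1, with P4 and M1 at 0. Gene-level values do not show which exons the Rb1 reads came from.

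P5 was the only line of the 4 with all 10 genes above 0, against 3 genes in P1, 2 in M1 and 1 in P4. The share of all symbols above 0 was 37.7% in P5, 32.6% in P1, 18.4% in M1 and 14.6% in P4. The counts in P1, M1 and P4 thus lay near that share, which also covers genes not found in P5. Among all genes with at least 10 CPM in P5, 0.739% were at 0 in P1, 15.1% in M1 and 25.8% in P4. Of the 10 genes, 7, 8 and 9 were. All 10 genes had their highest value in P5, a primary line, and 7 of them were listed at 0 in each of P1, P4 and M1. Among all 14888 genes with at least 1 CPM in a line, 38.2% were highest in P5. Of the 10 genes, 8 reached 1 CPM in P5 only, so that their highest line was fixed once they were counted. Together the 10 genes summed to 751 CPM in P5, 147 CPM in P1, 79.0 CPM in M1 and 22.3 CPM in P4. Without Cpe the sums were 482 CPM in P5, 7.97 CPM in M1, 1.47 CPM in P1 and 0 in P4. The widest gap was thus between primary lines, P5 and P4. In bulk RNA, fewer cells of a type and less RNA per cell cannot be told apart. Fibroblast markers also had their highest sum in P5 (865 CPM, against 33.7 to 89.4 CPM), and their part in the result was not tested.

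**Figure D1:**
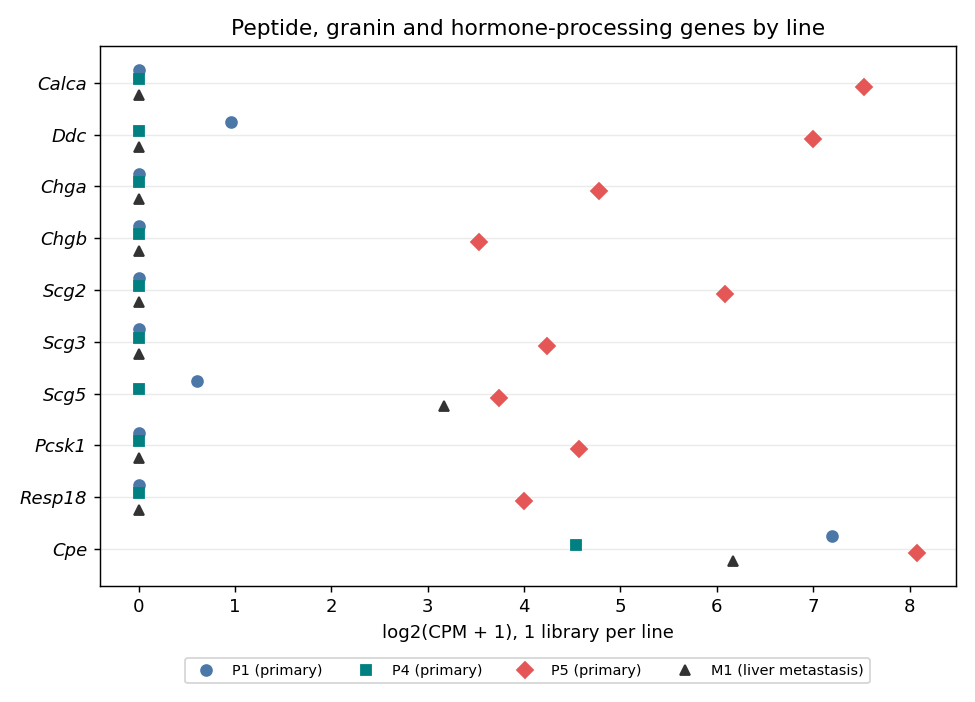
The level of each gene in each line, as log2(CPM + 1) on the horizontal axis, with 1 point per line and library. The diamond of P5 lies to the right of every other symbol in 10 of 10 rows, and Scg5 in M1 and Cpe in all lines are the other points well above 0.

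Calca (gene ID 12310, chromosome 7, 114625981 to 114636910 in mm10) encodes the precursors of calcitonin and of calcitonin gene-related peptide, which arise by alternative splicing and are not separated in a gene-level value. It was at 183 CPM in P5, from 2109 reads, with P1, P4 and M1 at 0. The exact Poisson interval of the P5 value was 175 to 191 CPM (95%), which, like all such intervals here, covers counting error only. Its close relative Calcb, with which reads could be shared and which was named after its values had been seen, was at 0.347 CPM in P5 and listed at 0 in the other lines.

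Ddc (gene ID 13195, chromosome 11, 11814101 to 11898144) encodes aromatic L-amino acid decarboxylase, the enzyme that makes serotonin and dopamine from their amino acid precursors. It was at 127 CPM in P5 (95% Poisson interval 121 to 134 CPM), at 0.945 CPM in P1, with P4 and M1 at 0. The P1 value rested on 9 reads (0.432 to 1.79 CPM), so that P5 was 135-fold above P1 on the CPM scale. The noncoding gene 1700042O10Rik overlaps Ddc and was at no more than 0.105 CPM in any line.

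Of the granin and related genes, 5 of 6 were above 10 CPM in P5 and at 0 in the other lines. The same held for 0.531% of all 8660 genes with at least 10 CPM in P5. Chga (gene ID 12652, chromosome 12, 102554941 to 102565027) encodes chromogranin A, the standard serum and tissue marker of neuroendocrine tumors. It was at 26.5 CPM in P5 (23.6 to 29.6 CPM, 305 reads), with P1, P4 and M1 at 0. Chgb (gene ID 12653, chromosome 2, 132781642 to 132795079), which encodes chromogranin B, was at 10.6 CPM in P5 (8.79 to 12.6 CPM, 122 reads) and listed at 0 in the other 3 lines. Both classical chromogranins were therefore detected in P5 and in no other library.

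Scg2 (gene ID 20254, chromosome 1, 79434366 to 79440026) encodes secretogranin II, the precursor of secretoneurin. It was at 67.1 CPM in P5 (62.4 to 72.0 CPM, 773 reads), with P1, P4 and M1 at 0. Scg3 (gene ID 20255, chromosome 9, 75643366 to 75685959), whose product tethers chromogranin A to the vesicle membrane, was at 17.9 CPM in P5 (15.5 to 20.5 CPM, 206 reads) and listed at 0 elsewhere. Resp18 (gene ID 19711, chromosome 1, 75272197 to 75278415), which encodes a protein of the regulated secretory pathway, was at 15.0 CPM in P5 (12.9 to 17.4 CPM, 173 reads) and also listed at 0 elsewhere. The counting intervals of these 3 genes in P5 lay far above the floor of 3 reads in every library.

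Scg5 was the exception among them, because it was also found in the metastatic line. Scg5 (gene ID 20394, chromosome 2, 113776313 to 113829091) encodes 7B2, the chaperone that prohormone convertase 2 needs for its maturation. It was at 12.3 CPM in P5 (10.4 to 14.5 CPM, 142 reads), at 7.97 CPM in M1 (6.40 to 9.80 CPM, 89 reads), at 0.525 CPM in P1 (0.170 to 1.22 CPM, 5 reads), with P4 at 0. P5 and M1 did not overlap within counting error, with P5 1.55-fold higher, and M1 was 15.2-fold above P1. P1 lay close to the limit of detection.

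Among the enzymes, Pcsk1 followed the granins and Cpe did not. Pcsk1 (gene ID 18548, chromosome 13, 75089420 to 75134861) encodes prohormone convertase 1/3, and was at 22.8 CPM in P5 (20.1 to 25.8 CPM, 263 reads), with P1, P4 and M1 at 0. Cpe (gene ID 12876, chromosome 8, 64592542 to 64693109) encodes carboxypeptidase E and was the only one of the 10 genes above 0 in every line. It was at 268 CPM in P5 (259 to 278 CPM), 146 CPM in P1 (138 to 154 CPM), 71.0 CPM in M1 (66.1 to 76.1 CPM) and 22.3 CPM in P4 (19.9 to 24.9 CPM). The order P5, P1, M1, P4 held beyond counting error at each step, with P5 1.84-fold above P1, P1 2.05-fold above M1 and M1 3.18-fold above P4. Whether these steps exceed the spread between cultures of 1 line cannot be seen from 1 library per line.

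The 0 values were next set against those of other genes, since P4 and M1 listed many genes at 0. P5 contained 8660 genes at 10 CPM or more, of which 25.8% were listed at 0 in P4, 15.1% in M1 and 0.739% in P1. Of the 10 genes followed here, all of which had at least 10 CPM in P5, 9 were listed at 0 in P4, 8 in M1 and 7 in P1. The combination of 0 in all 3 other lines occurred in 0.531% of the 8660 genes, or 46 genes, and 7 of these 46 were Calca, Chga, Chgb, Scg2, Scg3, Pcsk1 and Resp18. P1 contained nearly as many genes as P5, so that the comparison of these 2 lines depends least on the low number of genes in P4 and M1.

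**Figure D2:**
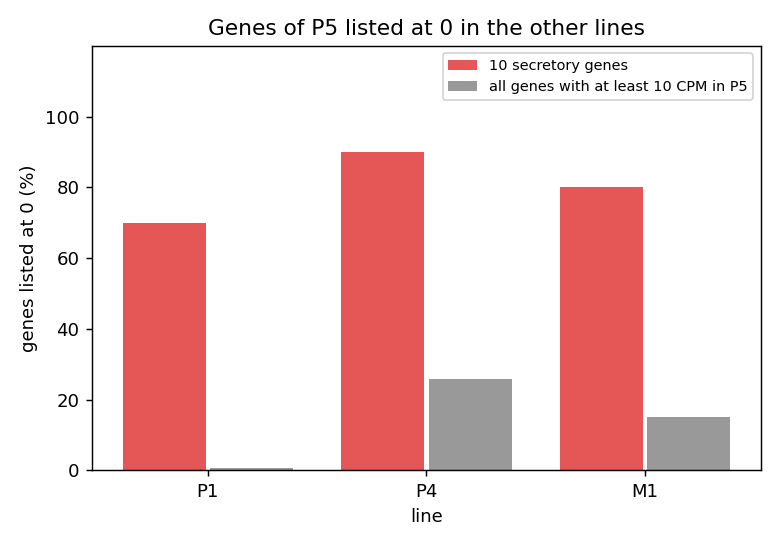
The percentage of genes listed at 0 in P1, P4 and M1 (bars from 0), for the 10 genes and for all 8660 genes with at least 10 CPM in P5. In P1 the bar of the 10 genes stands for 7 genes, against 0.739% of all genes.

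Between P5 and P1, both primary lines with many genes detected, 9 of the 10 genes differed by at least 3 on the log2(CPM + 1) scale, which 2.3% of the 14888 genes did in this direction. The difference on this scale was 7.52 for Calca, 6.09 for Scg2, 6.04 for Ddc, 4.78 for Chga, 4.57 for Pcsk1, 4.24 for Scg3, 4.00 for Resp18, 3.53 for Chgb and 3.13 for Scg5. It was 0.88 for Cpe. With 1 library on each side these differences have no replicate check, and for genes at 0 in P1 their size depends on the added 1.

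**Figure D3:**
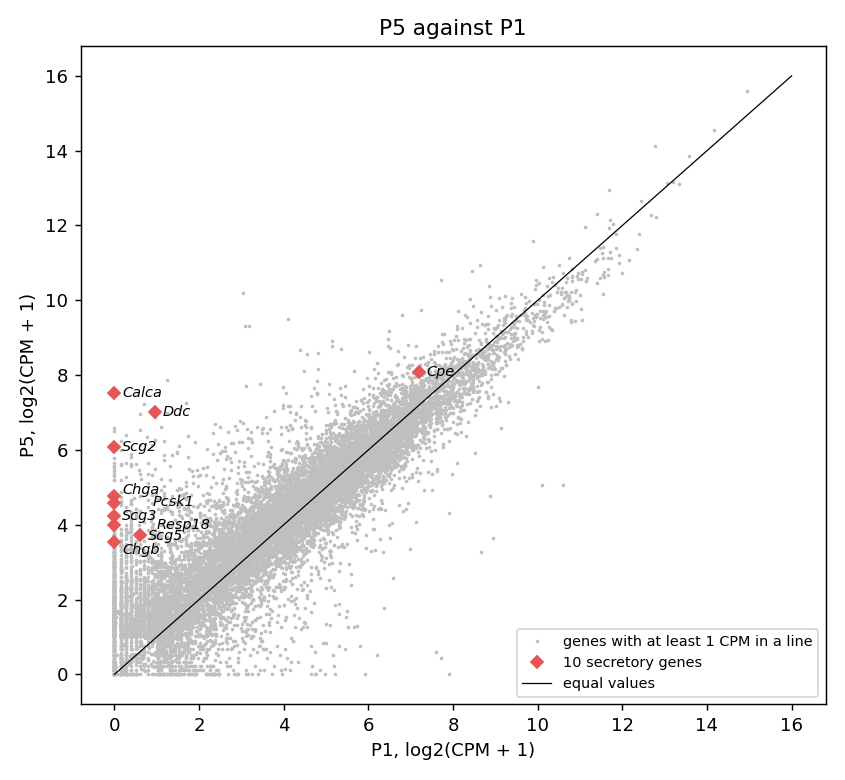
P5 against P1 on the log2(CPM + 1) scale for the 14888 genes with at least 1 CPM in a line (grey points), with the 10 genes as diamonds and a line of equal values. Calca, Scg2, Chga, Pcsk1, Scg3, Resp18 and Chgb stand on the left edge, at 0 in P1, while Cpe lies 0.88 above the line.

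The comparison of M1 with the primary lines, for which the libraries were made, asked whether the metastatic line was transcribed differently. For the genes other than Cpe the spread of the primary lines came mostly from P5, with a mean of 61.0 ± 106 CPM (SD, n = 3) for Calca. The mean for Cpe was 145 ± 123 CPM, and its spread came from P4 (22.3 CPM) as well as P5 (268 CPM). M1 was at 0 for Calca and at 71.0 CPM for Cpe. On log2(CPM + 1) in limma, the difference of M1 from the mean of P1, P4 and P5 was -2.51 ± 3.81 (SE) for Calca, -2.65 ± 3.39 for Ddc and -1.59 ± 2.44 for Chga. Scg2, Pcsk1, Scg3, Resp18 and Chgb gave differences between -2.03 and -1.18, Cpe gave -0.43 ± 1.59 and Scg5 gave 1.72 ± 2.05. The adjusted p of the 10 genes ranged from 0.729 to 0.889 (limma). Of all 14888 genes, 0% passed the adjusted threshold of 0.05 (limma), and 9.68% were below 0.05 unadjusted, of which 0 were among the 10 genes. The median difference of all genes tested was -0.53.

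All 10 genes entered this test, but 8 of them only through P5, so that a difference below 0 was the only one possible for those with M1 at 0. In no case was M1 above or below every primary line, which 22% and 20.7% of all genes tested were. For the 8 genes that entered only through P5, M1 and P4 were both at 0, so that neither position was possible. M1 equalled P1 and P4, at 0, for Calca, Chga, Chgb, Scg2, Scg3, Pcsk1 and Resp18. Without P5, the difference for these 7 genes was 0, and Cpe turned from -0.43 to 0.30. Scg5 then stood above both remaining primary lines.

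**Figure D4:**
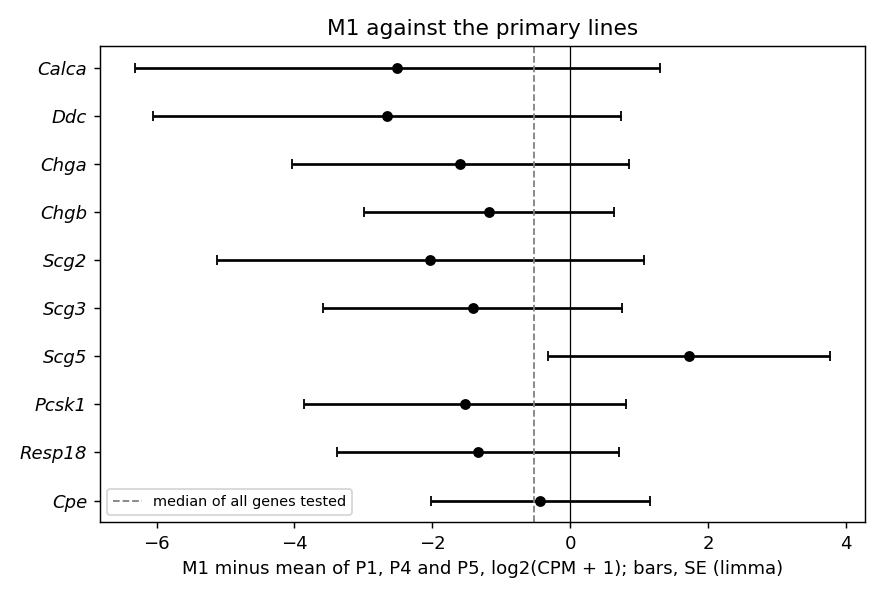
The difference of M1 from the mean of the primary lines for each gene, in log2(CPM + 1), with bars for the SE of the limma fit and a dashed line at the median of all genes tested, -0.53. The bar of each of the 10 genes crosses 0.

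The sequence before the transcription start was examined for the genes that shared the P5 pattern. RefSeq promoter windows of GRCm38.p6, the assembly that mm10 names, were matched by symbol for 9 of the 10 genes, in 10 windows, since Ddc has a pair of starts. Cpe was the gene without an entry. Motifs were searched on both strands in the 250 bases before each start, and were chosen after the sequences had been read. The cyclic AMP response element (CRE), the palindrome TGACGTCA, is bound by CREB family factors and is known from granin gene promoters. It was found in Scg2, Chgb and Pcsk1, 3 of the 10 windows, and in 1.55% of all 32851 windows of this length. Its core TGACG, which every full element contains, was found in 7 of the 10 windows, those of Scg2, Chgb, Pcsk1, Chga, Calca, Scg3 and Scg5, and in 17.8% of all windows. The E-box CAGCTG, a type bound by basic helix-loop-helix factors, was found in Chga and Resp18 and in 13.0% of all windows, and TATAAA in Ddc and in 12.4%. The stretches below are those of Scg2, Chgb and Chga, genes listed at 0 outside P5 whose stretch with the core lies outside the gene coordinates given above. The stretches of Pcsk1, Calca and Scg3 lie within those coordinates, before an internal start, and are not shown. The stretches shown are written 5′ to 3′ on the strand of the gene and end before the start, with the element or core in capitals.

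Scg2 (chr1:79440032-79440131, minus strand): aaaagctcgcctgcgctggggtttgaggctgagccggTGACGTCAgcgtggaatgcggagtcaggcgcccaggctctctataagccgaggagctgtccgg
Chgb (chr2:132781533-132781632, plus strand): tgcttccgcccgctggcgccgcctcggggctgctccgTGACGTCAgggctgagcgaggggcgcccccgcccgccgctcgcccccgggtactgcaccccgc
Chga (chr12:102554857-102554940, plus strand): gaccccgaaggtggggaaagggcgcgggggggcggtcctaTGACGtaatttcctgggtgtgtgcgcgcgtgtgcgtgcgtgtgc

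The full element began at base -68 from the start in Scg2, -72 in Chgb and -78 in Pcsk1. The core alone began at -44 in Chga, -65 in Calca and -30 in Scg3, and Pcsk1 held another at -50. In Scg5, which was also found in M1, it lay farther out, at -175. The windows of Resp18 and Ddc did not hold TGACG. A match describes the sequence and was not tested for binding.

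Related genes were then counted from lists of the same pathway, which also hold the 10 genes themselves. Of 8 granin and cargo genes, 7 were highest in P5, against 38.2% of all genes tested. These 7 were Chga, Chgb, Scg2, Scg3, Scg5 and Resp18, described above, and Pcsk1n as the only further gene. The eighth, Vgf, which encodes a granin-like neuropeptide precursor, was highest in M1 (18.5 CPM), followed by P4 with 13.8 CPM, P5 with 4.69 CPM and P1 with 0.105 CPM. It was thus the one granin-type gene found in P4. Pcsk1n, the inhibitor of prohormone convertase 1/3, named after its values had been seen, was at 2.95 CPM in P5 and listed at 0 elsewhere. Of the 8 genes, 6 reached 1 CPM in a single line and entered the test through it, so that their direction and their highest line were fixed. In the test, 0 of 8 passed (limma).

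Of the 12 tested genes of prohormone processing, 8 were highest in P5 (38.2% over all genes tested), 3 were lower in M1 than in every primary line (20.7% over all genes tested) and 0 passed the test (limma). Of the 12, 4 entered the test through a single line, which fixed their highest line. Pcsk1, Cpe and Scg5 were described above, and Pcsk1n is in both lists. Pcsk2, which encodes prohormone convertase 2, named after its values had been seen, was at 8.59 CPM in P5, with P1, P4 and M1 at 0. M1 thus had reads of the chaperone gene Scg5 with Pcsk2 listed at 0. Pam, which encodes the enzyme that amidates peptide ends, had the same order of lines as Cpe, with 127 CPM in P5, 50.6 CPM in P1, 37.8 CPM in M1 and 8.28 CPM in P4. Furin, a convertase of the constitutive pathway, was at 51.1 CPM in P5 and between 32.5 CPM (M1) and 65.6 CPM (P1) in the other lines. Ctsl, a lysosomal protease that also cuts prohormones, was at 162 CPM in P5, 184 CPM in P4, 160 CPM in M1 and 71.3 CPM in P1. Cpd, a carboxypeptidase of the trans-Golgi network, was at 65.2 CPM in P5 and 64.1 CPM in P1 but at 1.73 CPM in P4 and 0.0895 CPM in M1.

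Of 32 precursors of peptide hormones, 20 were above 0 in P5, 8 in P1, 1 in M1 and 0 in P4. Over all symbols, 37.7% were above 0 in P5, 32.6% in P1, 18.4% in M1 and 14.6% in P4. Of the 10 that were tested, 9 entered through a single line, and 0 passed the test (limma). Besides Calca, P5 contained Edn1, the precursor gene of endothelin 1, at 50.3 CPM, Vip, which encodes vasoactive intestinal peptide, at 9.89 CPM and Cartpt at 5.38 CPM. Edn1 was at 5.77 CPM and Vip at 0.105 CPM in P1, while P4 and M1 were at 0 for both. Cartpt was at 0 outside P5. M1 had a single precursor above 0. Grp, which encodes gastrin-releasing peptide, a growth factor for SCLC cells, had 30.8 CPM in M1 and a single read, 0.0868 CPM, in P5, with P1 and P4 at 0 (log2 difference 4.95 ± 0.86, SE; limma, adjusted p = 0.304). Since M1 was the line that brought Grp into the test, its direction was fixed.

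Amine synthesis and handling gave 6 of 8 tested genes highest in P5, against 38.2% of all genes tested, and 0 genes past the test (limma). Of the 8, 4 entered through a single line, which fixed their highest line, and Ddc, described above, was among them. Gch1, which encodes the first enzyme of tetrahydrobiopterin synthesis, a cofactor of amine synthesis, was at 11.0 CPM in P5 and 2.20 CPM in P1, with P4 and M1 at 0. Slc18a1, which encodes a vesicular monoamine transporter, and Tph1, which encodes tryptophan hydroxylase 1, were named after their values were seen. They were at 5.55 and 1.91 CPM in P5 and at no more than 0.105 CPM in another line. Slc18a2, the other vesicular monoamine transporter gene, also outside the naming rule, went the other way, with 4.30 CPM in P1 against 2.86 CPM in P5, and was at 0 in P4 and M1. The degrading enzyme gene Maoa was found in all lines, at 22.3 to 61.2 CPM, while Maob was highest in P1, at 10.3 CPM, and was at 0.868 CPM in P5, with P4 and M1 at 0.

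For the machinery that forms and releases dense core vesicles, 6 of 12 tested genes were highest in P5 and 4 in M1, against 38.2% and 22% of all genes tested, so that the list lay near the background. The median difference was 0.00, against -0.53 for all genes, and 0 passed the test (limma). Ptprn, which encodes the vesicle membrane protein IA-2, was at 53.8 CPM in P5, 29.1 CPM in P1, 19.1 CPM in P4 and 10.2 CPM in M1. Syt7, which encodes a calcium sensor of exocytosis, was highest in M1, at 104 CPM, against 27.8 CPM in P1, 16.1 CPM in P5 and 0 in P4. Cadps2, which encodes a priming factor for vesicle release and was named after its values had been seen, had 26.7 CPM in M1 against 6.42 CPM in P5, with P1 and P4 at 0. Ccdc186 was found in all lines at 45.9 to 103 CPM and Eipr1 at 17.2 to 60.8 CPM. Hid1, needed for vesicle formation, was at 0.269 CPM in M1 and between 5.54 and 45.7 CPM in the primary lines.

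Several transcription factors of neuroendocrine SCLC were highest in M1. Neurod1, which defines a subtype of SCLC, had 134 CPM in M1 and 0.0868 CPM in P5, with P1 and P4 at 0 (log2 difference 7.04 ± 1.15, SE; limma, adjusted p = 0.304), and it too entered the test only through M1. Insm1, a zinc finger factor of endocrine cells, had 74.0 CPM in M1 against 6.94 CPM in P5, with P1 and P4 at 0. Prox1, a homeobox factor, had 139 CPM in M1 against 21.2 CPM in P5, with P1 at 0.210 CPM and P4 at 0. Nkx2-1, a factor of lung identity named after its values had been seen, was at 7.20 CPM in P5 and listed at 0 elsewhere. Rest, which encodes the repressor of neuronal genes, was at 217 CPM in P5 and 261 CPM in P1 against 57.2 CPM in M1 and 48.7 CPM in P4. P5 thus combined a high value of this repressor gene with the peptide genes. Of the 13 tested factors, 7 were highest in M1 and 5 in P5, against 22% and 38.2% of all genes tested. Of the 13, 6 were in the test through a single line, which fixed their highest line, and 0 passed it (limma).

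**Figure D5:**
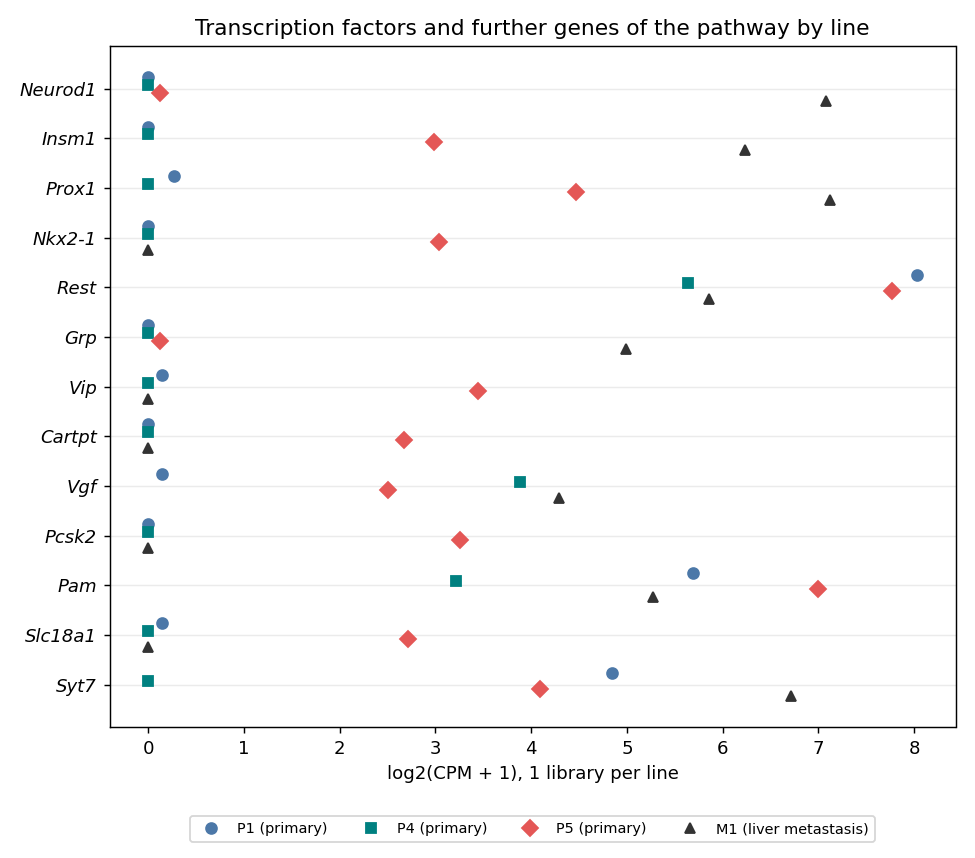
Transcription factors and further genes of peptide and amine secretion by line, as log2(CPM + 1), with 1 point per line and library. Nkx2-1, Vip, Cartpt, Pcsk2 and Slc18a1 have their only high point in P5, Neurod1 and Grp in M1, while Insm1 and Prox1 are found in both.

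The neuroendocrine label of the lines was checked with 7 markers, of which 7 were above 0 in P5, 6 in M1, 3 in P1 and 1 in P4. Of all symbols, 37.7% were above 0 in P5, 18.4% in M1, 32.6% in P1 and 14.6% in P4. Ncam1, the marker above 0 in all lines, was at 1057 CPM in P5 and 299 to 340 CPM in the other lines. Uchl1 had 76.1 CPM in M1 against 66.4 CPM in P5, with P1 at 5.14 CPM and P4 at 0. P1 and P4 had few of these markers above 0. Their counts lay near the share of all symbols, so that they say little about the label of these lines. Markers of other cells moved with P5 as well. The 5 fibroblast markers summed to 865 CPM in P5, against 33.7 to 89.4 CPM in P1 and P4 and 38.5 CPM in M1. Of the 5, 4 were highest in P5, against 38.2% of all genes tested. Col3a1 was at 483 CPM, Col1a2 at 206 CPM, Col1a1 at 145 CPM and Pdgfra at 28.6 CPM in P5. In P1 these genes were at 34.0, 7.66, 16.1 and 9.87 CPM. Dcn was the exception, with 21.8 CPM in P1 against 2.43 CPM in P5. The endothelial markers summed to 13.5 CPM in P5, with Kdr at 12.5 CPM, and to at most 0.329 CPM elsewhere. Islet and gut endocrine markers summed to 0.347 CPM in P5, from Sst and Ghrl, and to 0 in the other lines, and Gcg, Ins2 and Ppy were at 0 in all lines. Hepatocyte markers summed to 1.56 CPM in P5 and 0 elsewhere. The 5 immune markers summed to 104 CPM in M1 and to between 0.0720 and 1.15 CPM in the primary lines, with Ptprc, the pan-leukocyte marker, at 0 in M1. The 5 markers of lung epithelium summed to 73.6 CPM in M1, all from Foxj1, and to between 0.630 and 4.17 CPM in the primary lines.

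Genes with the most similar pattern over the 4 lines were listed by the root mean square difference of log2(CPM + 1), each gene centred on its own mean, among 10762 genes with at least 10 CPM in a line. The 3 nearest genes of each of the 10 gave 28 distinct genes, and 0 of the 30 pairs joined genes of the set, since the measure depends on the height in P5 as well as on the pattern. Nearest to Chgb were Aatk and Layn, both at 10.7 CPM in P5 and 0 elsewhere (difference 0.0047). Resp18 was nearest to Doc2b (0.0068), Chga to Mxra7 (0.018), Scg2 to Rgs4 (0.021), Scg3 to Sorcs1 (0.023) and Pcsk1 to Plxdc2 (0.025). These genes were likewise listed at 0 in P1, P4 and M1. Ddc was nearest to Sulf1 (0.033), at 124 CPM in P5 and 0.840 CPM in P1. Calca had no gene as close, with Stc1 at a difference of 0.37. Scg5 was nearest to Plekhg1 (0.10) and Cpe to Ccnt2 (0.11).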

How the data were processed

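Total RNA of 4 untreated lines was sequenced, 1 library each. The labels name a total RNA kit and the study's methods a kit for 3′ ends of mRNA, so that the level of a gene was not ranked against that of another, and sums over genes only compare lines. The authors deposited a CPM table, each library summing to 1000000. The submitters' processing notes list mm10. No source used here names the counting tool. Of 54838 rows, 85 without a symbol (0.00672% to 0.0130% of a library) were left out, and rows of 1 symbol were summed. The commonest value above 0 was taken as 1 read. Between 79.03% and 88.93% of values above 0 were whole reads (tolerance 0.001), as were all values of the 10 genes. Since the other values were not whole, no count model was fitted. Lines were grouped by title into primary and metastasis.

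The test was limma 3.58.1 (R 4.3.3) on log2(CPM + 1) values (eBayes with trend, two-sided, Benjamini-Hochberg over all 14888 genes with at least 1 CPM in a library, threshold 0.05), and the script was tested on simulated data. The spread is that of the primary lines, which M1 was taken to share. P-values measure only the spread between these lines. Because of the added 1, the scale compresses differences of low genes. P5 was not tested against the other lines, because it was singled out by its values. Intervals are exact Poisson intervals at 95%. Named genes were the 10 genes, up to 5 genes of each list with the highest value of at least 5 CPM, the 3 genes nearest to each of the 10, and the deleted genes, and others are marked in the text. Some genes of the lists are not reported here. The genes and lists were chosen with earlier results of these data known. Promoters and coordinates are from RefSeq (GRCm38.p6). Alternatives covered the pseudocount (0.1 and 5), the filter, scaling, the trend, each primary line left out and a term for P1 with P5 against P4 with M1, paired by their number of genes detected. Tables and figures were made in Python 3.11.15 with matplotlib 3.10.9.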

Additional observations from a re-analysis of the deposited data

How the results depend on the processing

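The count of genes past the threshold was 0 under each of the 11 alternatives to the limma fit, with between 150 (without P1) and 5286 genes (without P4) below 0.05 unadjusted. Of 102 differences of single genes under these alternatives, 85 kept their direction, 2 turned and 15 became 0. Cpe turned from -0.43 to 1.63 (adjusted p = 0.251, limma) with the term for library pairs, which compares M1 with P4, and to 0.30 without P5, within a range of -1.47 to 0.30 when each primary line was left out. The filter and the trend do not enter the difference and could not turn it. For genes with M1 at 0, neither could the pseudocount, median ratio scaling or a primary line left out. Many of the 85 directions were thus fixed. The pseudocount and median ratio scaling did not turn Scg5 or Cpe, and quantile normalization turned no difference. A minimum of 1 CPM in 2 libraries left only Scg5 and Cpe in the test. The count of genes with M1 above or below every primary line was 0 and ranged from 0 to 2 when a primary line was left out: Cpe and Ddc were below both others without P4, and Scg5 above both without P5. The median of all genes moved from -0.53 to -0.06 with quantile normalization. Other alternatives were added after the data were seen. Leaving out lines other than P5 could not lower the count of 10 of 10 genes highest in P5, so that it tested nothing. Median ratio scaling, with factors close to 1 (0.955 for M1 to 1.07 for P1), left this count unchanged. The 7 genes at 0 were the same count with P1 alone. No paired analysis was possible, because by the submitters' description the single metastatic line comes from another mouse than the primary lines. Counting error limits statements on 0 to 3 reads, at most 0.315 CPM, but P4 and M1 list many genes at 0, so that read depth is not the only limit there, and 1 library per line limits all other statements.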

Other observations

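Receptors for these peptides were described last, from a list of 20 genes of which 6 were tested and 0 passed (limma). Npy1r, which encodes a receptor of neuropeptide Y, was at 35.4 CPM in P5 and at no more than 0.105 CPM in another line, and thus shared the pattern of the peptide genes. Sstr2, which encodes the somatostatin receptor used for imaging of neuroendocrine tumors, had 11.5 CPM in M1 against 1.48 CPM in P5, with P1 and P4 at 0. Ramp3, which encodes an accessory protein of receptors for calcitonin family peptides, ran against Calca: it was lowest in P5, at 1.39 CPM, and at 36.4 CPM in P4, 20.9 CPM in P1 and 7.79 CPM in M1. Calcrl and Ramp1, the subunits of the receptor for calcitonin gene-related peptide, named after their values were seen, were at 2.95 and 2.34 CPM in P5, at 2.83 CPM each in P1, with P4 and M1 at 0.

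Genes found at 10 CPM or more in 1 line and listed at 0 in the other 3 numbered 110 in M1, 46 in P5, 19 in P4 and 7 in P1.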
